A study of Mus musculus with 2 samples.

Results

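Lysosomes are acidic organelles in which hydrolases break down proteins, glycans, lipids and nucleic acids that arrive by endocytosis, phagocytosis and autophagy. Cathepsins cut proteins, glycosidases and sulfatases take sugar chains apart from their ends, and small activator proteins present lipids to the enzymes that cleave them. A heavily glycosylated membrane keeps these enzymes apart from the cytosol, and *Tfeb*, a transcription factor of the MiT/TFE family, binds the promoters of many lysosomal genes. In white matter, lysosomes of microglia take up myelin debris, lysosomes of oligodendrocytes turn over myelin lipids, and inherited defects in several of these enzymes cause leukodystrophies or neuronal storage diseases.

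The lysosome genes described here are 37 genes chosen by symbol: 10 cathepsins, 11 glycosidases and sulfatases, 8 other lumenal proteins, 6 membrane proteins and 2 regulators. They were measured by RNA-seq in optic nerves of mice at P12, in 1 control library and 1 *Tcf7l2*ΔHMG library. The control genotype is labelled Tcf7l2 c/+; OLig1-cre and the mutant genotype Tcf7l2 c/c; OLig1-cre, so both groups carry the Cre and at least 1 conditional allele, and both were kept on a mixed strain background. Recombination removes the exon for the DNA-binding HMG box in cells of the *Olig1*-Cre lineage, which gives rise to oligodendrocytes, and the number of animals behind each library is not given in the sources used here. The mutant messenger RNA may still be made, so the level of *Tcf7l2*, 17.8 FPKM in control nerve and 14.6 FPKM in mutant nerve, does not check the genotype. FPKM scales the fragment count of a gene by its transcript length and by the depth of the library, so that levels can be compared between genes.

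All 37 genes were found in both libraries and passed the filter of at least 1 FPKM in at least 1 library, among 14199 genes that did so. With 1 library per genotype, no difference between the genotypes could be tested, and the spread between animals is unknown. The deposited Cufflinks interval of each value covers fragment sampling within a library only. The tissue label was checked against markers. Myelin genes were abundant in both libraries, with *Mbp*, the myelin basic protein gene, at 16990 FPKM in control nerve and 11646 FPKM in mutant nerve. The summed FPKM of 10 myelinating oligodendrocyte markers was 31863 in control nerve and 18213 in mutant nerve, and 7 of the 10 were lower by a fold change above 1.5. Sequencing depth, read from the interval bounds of short unnamed rows, was 27624000 fragments in control nerve and 39938000 fragments in mutant nerve. A transcript of 1 kb with 3 fragments then corresponds to 0.109 FPKM and 0.0751 FPKM, far below the lowest lysosome gene.

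As a group, the lysosome genes differed little between the libraries. The summed FPKM of the 37 genes was 2882 in control nerve and 3049 in mutant nerve, which is 1.06 times as much. A fold change above 1.5 towards the mutant was seen for 2 of the 37, *Cd68* and *Ctsf*, and no gene passed it in the other direction. Among all 14199 genes, 15.4% were higher in mutant nerve by that fold change and 8.52% were lower. Low genes scatter more, so the same shares were taken over the 11136 genes within the members' range of mean FPKM. There they were 11.7% and 7.92%. The share of lysosome genes past the cutoff was 5.41% higher and 0% lower. The members' range holds most of the genes compared and is not matched to the members' levels. The median lysosome gene had 38.1 FPKM in control nerve, compared with 9.62 FPKM for the median of all genes. With counts this small and levels unlike, no difference from the background is read from these shares. The log2 ratio of mutant to control, computed after 0.1 was added to each FPKM, had a median of 0.12 over the lysosome genes and 0.05 over all genes. It ran from −0.38 for *Ppt1* to 0.80 for *Cd68*, whereas 90% of all genes lay between −0.83 and 1.18.

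**Figure D1:**
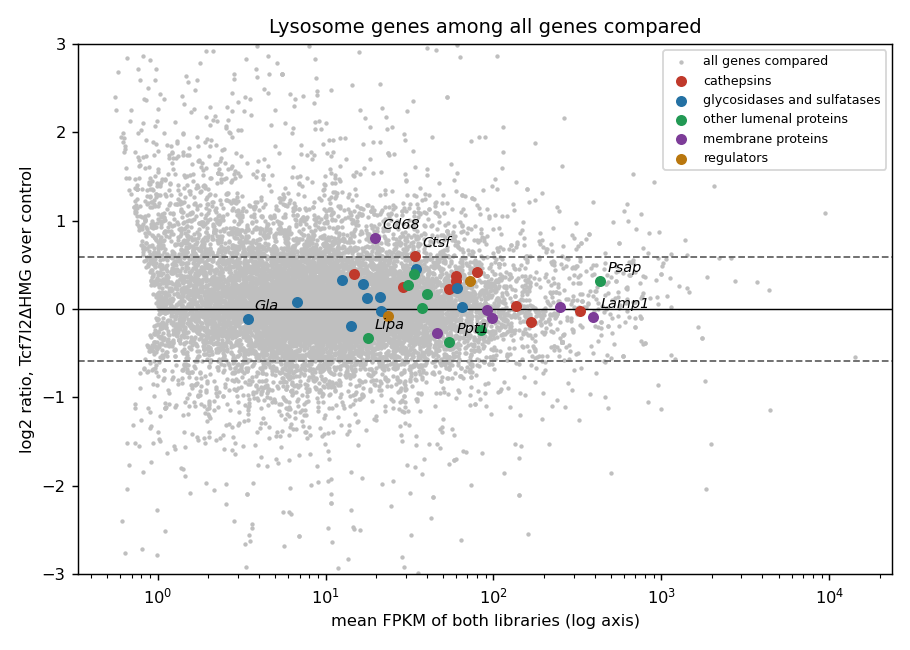
Mean FPKM of both libraries (log axis) against the log2 ratio of *Tcf7l2*ΔHMG to control for all genes compared (grey; 388 genes beyond the vertical axis are not drawn) and for the 37 lysosome genes, coloured by class. Dashed lines mark a fold change of 1.5, which *Cd68* and *Ctsf* passed and the other 35 lysosome genes did not.

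The direction of these small differences depended on the scaling of the libraries. The FPKM as deposited was higher in mutant nerve for 24 of the 37 genes, compared with 54.6% of all genes and 52.4% of those within the members' range of mean FPKM. Relative to the median ratio of all genes, 20 of the 37 were higher and 17 lower, and the same counts followed from scaling to the 75th percentile or rescaling the named rows. Rescaling all rows, unnamed ones included, left 1 higher and 36 lower, while the median of all genes became −0.63. The Cufflinks intervals lay apart, with the mutant higher, for 18 of the 37 genes (48.6%), compared with 30.0% of all genes. They lay apart with the mutant lower for 7 of the 37 (18.9%), compared with 22.3% of all genes. Among genes within the members' range of mean FPKM these shares were 29.9% and 25.1%. The remaining 12 overlapped. The 37 genes were measured with intervals of 1.16% to 14.6% on either side of the midpoint, so intervals could lie apart at differences as small as those of *Lamp1* and *Scarb2*. The median of this width was 5.36% in control nerve and 4.22% in mutant nerve. It was 9.65% and 7.94% for all genes, and 8.06% and 6.79% within the members' range of mean FPKM. Narrower intervals lie apart more readily, so the shares of intervals that lay apart are not compared like with like. The deposited FPKM fell beyond its interval for 8 of the 37 genes in control nerve (9.13% of all genes), for 11 in mutant nerve (11.5%) and for 13 in either (14.8%), so the intervals are an incomplete measure of error. The intervals of *Ctsd*, for instance, placed the mutant higher while its FPKM was 331 in control nerve and 325 in mutant nerve.

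The levels spanned a wide range. *Lamp1*, *Psap*, *Ctsd*, *Cd63* and *Ctsl* were the 5 highest in both libraries and made up 53.6% of the summed FPKM of the 37 genes in control nerve and 52.4% in mutant nerve. *Lamp1* was the highest in control nerve at 406 FPKM and *Psap* the highest in mutant nerve at 481 FPKM. *Gla* was the lowest in both, at 3.57 and 3.30 FPKM, and *Sgsh* was next at 6.54 and 6.90 FPKM. The median lysosome gene had 38.1 FPKM in control nerve and 41.7 FPKM in mutant nerve, compared with 9.62 and 9.96 FPKM for the median of all genes, and 35 of the 37 lay above the latter. The order of the genes by level was similar in both libraries, as 11 kept their rank and none moved by more than 7 places. *Cd68* was the gene that moved by 7, from rank 33 to rank 26.

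**Figure D2:**
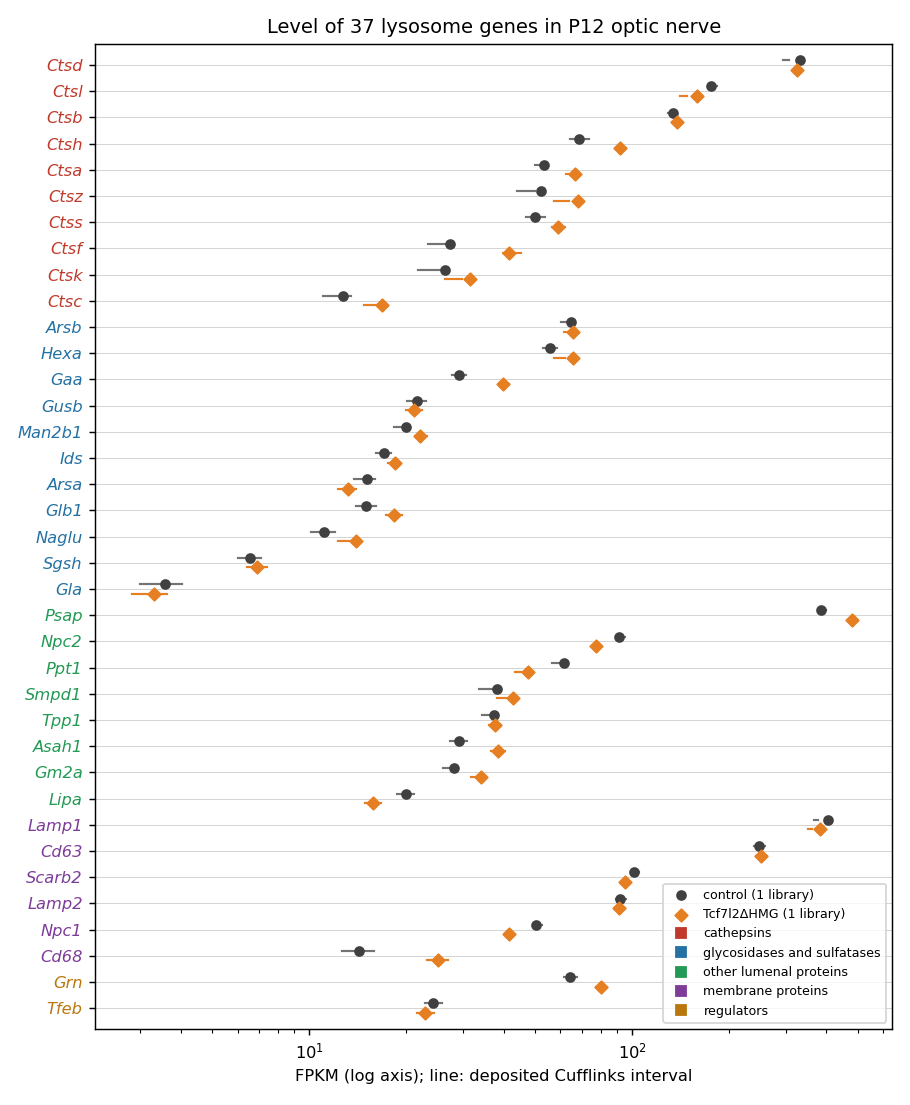
FPKM (log axis) of each lysosome gene in control nerve library (circles) and the *Tcf7l2*ΔHMG library (diamonds), with the deposited Cufflinks interval as a line and gene names coloured by class. Levels ran from 3.30 FPKM for *Gla* to 481 FPKM for *Psap*, and several symbols, such as *Lamp1* and *Ctsz*, lie outside their own line.

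Cathepsins as a class had the largest median log2 ratio, 0.28 over 10 genes, with 8 higher in mutant nerve. *Ctsf*, a cysteine protease of the papain family, located at chr19:4855129-4860912 (mm9), had 27.2 FPKM in control nerve (interval 23.3 to 27.1) and 41.4 FPKM in mutant nerve (39.8 to 45.2). Its fold change was 1.52, just past the cutoff, and its log2 ratio of 0.60 became 0.75 when interval midpoints replaced the FPKM. After the ratios were centred on the median of all genes it was 0.56, below the cutoff. *Ctsh*, an aminopeptidase, was at 68.7 FPKM (64.1 to 73.3) in control nerve and 91.8 FPKM (89.3 to 95.8) in mutant nerve, a log2 ratio of 0.42. *Ctsc*, or dipeptidyl peptidase I, which activates serine proteases of immune cells, was at 12.8 and 16.8 FPKM (log2 ratio 0.40), and the files held unnamed rows inside its span, 4 in control nerve and 3 in mutant nerve, that could take fragments from it. *Ctsz*, a carboxypeptidase, was at 52.4 and 67.9 FPKM (log2 ratio 0.37), and *Ctss*, which trims the invariant chain in antigen-presenting cells, at 50.2 and 58.9 FPKM (log2 ratio 0.23). For all of these 5 cathepsins the mutant interval lay above the control interval.

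*Ctsa*, a serine carboxypeptidase that protects beta-galactosidase and neuraminidase from degradation, was at 53.5 FPKM in control nerve and 66.6 FPKM in mutant nerve (log2 ratio 0.31). *Ctsk*, best known as the collagen-degrading protease of osteoclasts, was at 26.4 and 31.4 FPKM (log2 ratio 0.25), with both values above their own intervals. The osteoclast markers *Oscar*, *Ocstamp* and *Dcstamp* were each below 1 FPKM in both libraries, *Acp5* was at 0.83 and 2.06 FPKM, and *Calcr* at 0.31 and 1.05 FPKM. Fibroblasts also express *Ctsk*. Of 10 meningeal and perineural fibroblast markers, 5 were higher in mutant nerve by a fold change above 1.5 (15.4% of all genes). None of these markers was at 0, and their summed FPKM was 2038 in control nerve and 3118 in mutant nerve. The part of fibroblasts in the value of *Ctsk* was not tested.

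The 3 most abundant cathepsins were at or below a log2 ratio of 0.04. *Ctsd*, the main aspartic protease of lysosomes, had 331 FPKM in control nerve and 325 FPKM in mutant nerve (log2 ratio −0.03), but its control FPKM lay above its interval of 293 to 306, and the midpoints gave a log2 ratio of 0.14. *Ctsb*, a cysteine protease with carboxydipeptidase activity, was at 134 and 137 FPKM (log2 ratio 0.04) with overlapping intervals. *Ctsl*, a cysteine endopeptidase, was the only cathepsin with a mutant interval below the control interval, at 176 FPKM (173 to 183) in control nerve and 159 FPKM in mutant nerve. The mutant value lay above its own interval of 140 to 148, and the log2 ratio was −0.14 from the FPKM and −0.30 from the midpoints. The direction for *Ctsd* therefore depended on which of the deposited columns was used.

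Glycosidases and sulfatases varied least among themselves of the 4 classes with over 2 genes, with an SD of 0.19 in the log2 ratio over 11 genes, a median of 0.12 and none past the cutoff. *Gaa*, the acid alpha-glucosidase that degrades glycogen, had the largest ratio of the class, at 29.0 FPKM (27.6 to 30.5) in control nerve and 39.8 FPKM (38.9 to 41.5) in mutant nerve, a log2 ratio of 0.45. *Naglu*, which removes N-acetylglucosamine from heparan sulfate, was at 11.1 and 14.0 FPKM (log2 ratio 0.33). *Glb1*, the beta-galactosidase that acts on GM1 ganglioside, was at 15.0 and 18.3 FPKM (log2 ratio 0.28), in a row that the files merged with *Tmppe* in both libraries. These 3 genes and *Man2b1*, the lysosomal alpha-mannosidase (19.96 and 22.0 FPKM, log2 ratio 0.14), were the members of the class whose mutant interval lay above the control interval.

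The other 7 overlapped. *Hexa*, the alpha subunit of beta-hexosaminidase, was at 55.7 FPKM in control nerve and 65.8 FPKM in mutant nerve, but the mutant value lay above its interval of 57.1 to 61.9, and the log2 ratio was 0.24 from the FPKM and 0.09 from the midpoints. *Gusb*, the beta-glucuronidase, was at 21.5 and 21.1 FPKM (log2 ratio −0.03). *Gla*, the alpha-galactosidase A deficient in Fabry disease, had a log2 ratio of −0.11, and its interval bounds allowed values from −0.50 to 0.27. A difference in *Gla* of the size measured was therefore not detectable at this depth.

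Of the sulfatases, *Arsb*, which acts on dermatan sulfate, was the highest at 64.9 FPKM in control nerve and 65.7 FPKM in mutant nerve (log2 ratio 0.02). *Ids*, the iduronate sulfatase, was at 17.0 and 18.5 FPKM (log2 ratio 0.12), and *Sgsh*, the heparan N-sulfatase, had a log2 ratio of 0.08. *Arsa*, which desulfates the myelin lipid sulfatide and is deficient in metachromatic leukodystrophy, was the only sulfatase with a lower FPKM in mutant nerve. It was at 15.0 FPKM (13.8 to 16.0) in control nerve and 13.2 FPKM (12.3 to 14.0) in mutant nerve, a log2 ratio of −0.19. All 4 pairs of sulfatase intervals overlapped, those of *Arsa* by a narrow margin.

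The other lumenal proteins divided by direction. *Psap*, the precursor of the saposins that assist sphingolipid hydrolases, was at 386 FPKM (385 to 398) in control nerve and 481 FPKM in mutant nerve, where its interval was 483 to 495. Its log2 ratio was 0.32, and in FPKM this was the largest difference among the 37 genes. *Asah1*, the acid ceramidase, was at 29.0 and 38.4 FPKM (log2 ratio 0.40). *Gm2a*, the activator that presents GM2 ganglioside to hexosaminidase A, was at 28.1 and 34.0 FPKM (log2 ratio 0.27), and *Smpd1*, the acid sphingomyelinase, at 38.1 and 42.8 FPKM (log2 ratio 0.17). All 4 of these sphingolipid genes had a mutant interval above that of the control.

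By contrast, the genes of this class with lower values in mutant nerve act on sterols and on fatty acyl groups. *Ppt1*, the palmitoyl-protein thioesterase deficient in infantile neuronal ceroid lipofuscinosis, had the lowest ratio of the 37 genes as the rows were deposited, at 61.7 FPKM (56.3 to 61.3) in control nerve and 47.5 FPKM (43.4 to 47.2) in mutant nerve, a log2 ratio of −0.38. Both values of *Ppt1* lay above their own intervals. Its span overlapped the row of *Cap1* (112 FPKM) in the control library only. *Lipa*, the acid lipase that hydrolyses cholesteryl esters and triglycerides, was at 19.9 FPKM (18.7 to 21.2) and 15.8 FPKM (14.9 to 16.7), a log2 ratio of −0.33. *Npc2*, which binds the cholesterol that *Lipa* releases, was at 91.2 and 77.5 FPKM (log2 ratio −0.24). For all 3 the mutant interval lay below the control interval, although none reached a fold change of 1.5. *Tpp1*, a tripeptidyl peptidase, was at 37.3 and 37.6 FPKM (log2 ratio 0.01), with overlapping intervals.

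**Figure D3:**
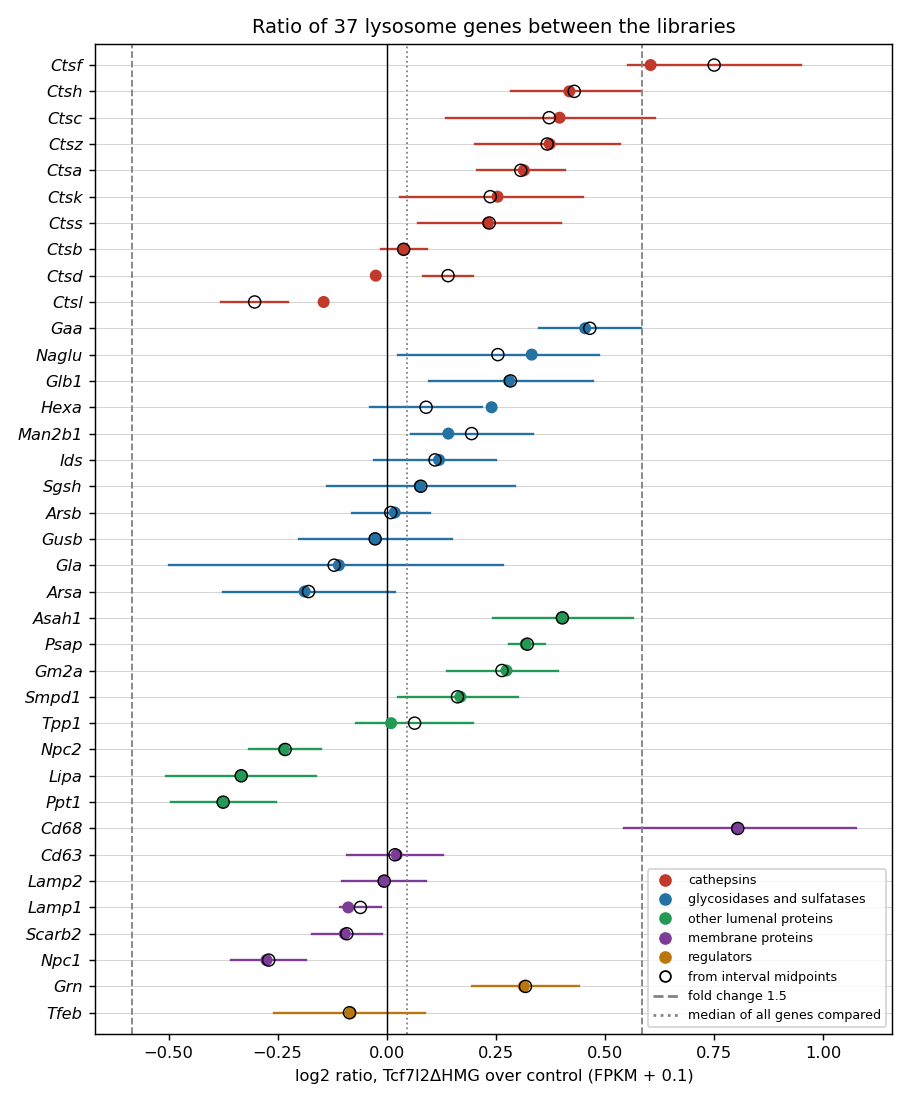
Log2 ratio of *Tcf7l2*ΔHMG to control for each lysosome gene (filled circles, by class), the lowest and highest ratio that the deposited intervals allow (lines) and the ratio of the interval midpoints (open circles). Of the 37 genes, 18 have lines above 0, 7 have lines below 0, and *Ctsd*, *Ctsl* and *Hexa* are filled circles that lie outside their own line.

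The membrane proteins were the class with a median log2 ratio below 0, at −0.05 over 6 genes. *Lamp1* and *Lamp2*, the glycoproteins that coat the inner face of the lysosomal membrane, were at 406 and 382 FPKM (log2 ratio −0.09) and at 91.8 and 91.3 FPKM (log2 ratio −0.01). *Cd63*, a tetraspanin of late endosomes, was at 247 and 251 FPKM (log2 ratio 0.02), and *Scarb2*, the receptor that carries glucocerebrosidase to lysosomes, at 101 and 94.9 FPKM (log2 ratio −0.10). Intervals overlapped for *Lamp2* and *Cd63* and lay apart by a narrow margin for *Lamp1* and *Scarb2*, and both values of *Lamp1* lay above their own intervals. These 4 structural genes were thus within 0.10 of 0 on the log2 scale.

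*Npc1*, the transporter that exports cholesterol from lysosomes together with *Npc2*, was at 50.4 FPKM (49.2 to 52.5) in control nerve and 41.7 FPKM (41.0 to 43.3) in mutant nerve, a log2 ratio of −0.28. The mutant row was merged with the neighbouring gene *Ankrd29*, which had its own row of 3.83 FPKM in control nerve. With *Ankrd29* added to the control, the log2 ratio of *Npc1* was −0.381, next to −0.377 for *Ppt1*.

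*Cd68*, a mucin-like glycoprotein of macrophage and microglial lysosomes, differed more than any other lysosome gene. It lies at chr11:69477715-69479672 (mm9) and was at 14.3 FPKM (12.7 to 15.9) in control nerve and 25.0 FPKM (23.2 to 26.8) in mutant nerve. This is a fold change of 1.74 and a log2 ratio of 0.80, and 90.3% of all genes had a ratio no higher. Both values lay inside their intervals, and the midpoints gave the same log2 ratio of 0.80.

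The class of regulators held 2 genes. *Grn*, which encodes progranulin, a secreted glycoprotein that is delivered to lysosomes and binds *Psap*, was at 64.4 FPKM (61.4 to 67.5) in control nerve and 80.2 FPKM (77.3 to 83.4) in mutant nerve, a log2 ratio of 0.31. *Tfeb* was at 24.3 FPKM (22.8 to 25.8) in control nerve and 22.9 FPKM (21.6 to 24.3) in mutant nerve, a log2 ratio of −0.08 with overlapping intervals. RNA level does not report the nuclear entry of the *Tfeb* protein, by which it is mainly controlled.

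The DNA letters that MiT/TFE factors bind were looked up in the promoters of the lysosome genes, because *Tfeb* is one of them. RefSeq promoters of GRCm38.p6, from 250 bases before the transcript start to 50 bases after it, were at hand for 33 of the 37 genes, with no entry for *Ctsb*, *Ctsh*, *Asah1* and *Npc1*. The letters TCACGTG, on either strand, were in 9 of the 33 (27.3%), compared with 4.29% of all 27025 genes with a promoter. The shorter CACGTG that they contain, which reads the same on both strands, was in 11 of the 33 (33.3%), compared with 8.09%. The windows below are those with CACGTG upstream of the start, from the lowest to the highest log2 ratio of the gene, with the second, more distant match of *Ctsd* left out. Each is written 5′ to 3′ on the strand of the gene, and capitals mark CACGTG.
Arsa, chr15:89477425-89477460, minus strand: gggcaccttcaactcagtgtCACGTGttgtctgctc
Ctsl, chr13:64370731-64370770, minus strand: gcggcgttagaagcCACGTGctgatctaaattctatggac
Gla, chrX:134601174-134601252, minus strand: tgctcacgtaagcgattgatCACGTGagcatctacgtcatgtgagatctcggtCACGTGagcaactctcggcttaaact
Lamp1, chr8:13159080-13159160, plus strand: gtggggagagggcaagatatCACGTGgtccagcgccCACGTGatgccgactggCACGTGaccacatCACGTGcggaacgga
Ctsd, chr7:142387900-142387945, minus strand: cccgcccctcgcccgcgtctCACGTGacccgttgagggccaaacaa
Sgsh, chr11:119355514-119355559, minus strand: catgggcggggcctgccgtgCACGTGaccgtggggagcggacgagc
Glb1, chr9:114401010-114401055, plus strand: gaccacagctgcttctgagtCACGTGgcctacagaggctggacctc
Ctsa, chr2:164833741-164833772, plus strand: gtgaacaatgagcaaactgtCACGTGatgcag
Naglu, chr11:101070001-101070046, plus strand: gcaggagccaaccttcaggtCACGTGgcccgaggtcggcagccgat
Gaa, chr11:119267803-119267848, plus strand: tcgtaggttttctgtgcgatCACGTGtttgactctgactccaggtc
Ctsf, chr19:4855066-4855111, plus strand: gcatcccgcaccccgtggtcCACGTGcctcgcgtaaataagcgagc

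*Lamp1* held 4 matches within its window and *Gla* 2, and neither gene was higher in mutant nerve. The genes with TCACGTG had log2 ratios from −0.19 for *Arsa* to 0.45 for *Gaa*, with 5 of the 9 higher in mutant nerve. Their median was 0.08, compared with 0.13 over the 24 genes without it. *Ctsf* and *Ctsl* hold the shorter letters only, and their ratios lay at opposite ends of the cathepsins. The letters GAGGAAGT, bound by the myeloid factor PU.1, were in 4 of the 33 promoters (12.1%), those of *Ctsc*, *Ctss*, *Gla* and *Gusb*, compared with 3.69% of all genes. The TCF/LEF letters CTTTGAT were in the promoters of *Npc2* and *Lamp2*, 6.06% compared with 4.29%, and CTTTGAA was in that of *Lipa*, 3.03% compared with 5.93%. A match describes these letters in a short window and does not show binding.

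Of the 37 genes, 5 are textbook genes of myeloid cells: *Ctsc*, *Ctsh*, *Ctss*, *Ctsz* and *Cd68*. All 5 were higher in mutant nerve with intervals that lay apart, as in 30.0% of all genes, with a median log2 ratio of 0.40 and a summed FPKM of 198 in control nerve and 261 in mutant nerve. The other 32 had a median of 0.03, and 13 of them had a mutant interval above that of the control and 7 below. The 5 were picked as myeloid with earlier results of these data known, so this contrast depends on the choice of list. Microglia and macrophage markers were mostly higher as well. Of 17 markers, 13 were higher in mutant nerve, compared with 54.6% of all genes. A fold change of 1.5 was passed by 4 (23.5%), compared with 15.4% of all genes. The median log2 ratio was 0.43, with none at 0 and a summed FPKM of 460 in control nerve and 655 in mutant nerve. For 8 of the 17 the FPKM lay outside its interval in either library, compared with 14.8% of all genes. Interval midpoints gave a median of 0.28, with 5 past the cutoff. The markers differed among themselves, since *Fcer1g* (25.7 and 56.5 FPKM) had a log2 ratio of 1.13 and *Csf1r* (39.0 and 48.6 FPKM) of 0.32, whereas *Aif1* (11.7 and 8.73 FPKM) and *Siglech* (4.94 and 3.71 FPKM) each had a log2 ratio of −0.41. The control FPKM of *Fcer1g* lay above its interval of 16.1 to 20.9. Border macrophage markers were higher in 5 of 5 cases, with 50.01 summed FPKM in control nerve and 74.6 in mutant nerve. Their intervals lay apart for 3 of the 5 and overlapped for 2. The part of these cells in the values of the 5 lysosome genes was not tested, and in bulk tissue more cells of a type and more RNA per cell cannot be told apart.

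Markers of other cells also differed. Astrocyte markers summed to 5149 FPKM in control nerve and 6116 FPKM in mutant nerve, with a median log2 ratio of 0.27 over 8 genes. Oligodendrocyte precursor markers summed to 417 and 329 FPKM, with a median of −0.27 over 6 genes, and the myelinating oligodendrocyte list had a median of −1.07. Endothelial markers (median −0.11 over 6) and pericyte and smooth muscle markers (median −0.06 over 6) were closer to 0. All 5 red blood cell markers were higher by a fold change above 1.5, as were 4 of 5 neuronal markers. The share over all genes was 15.4%. *Hba-a1* and *Hba-a2* shared 1 value within each library, 88.7 FPKM in control nerve and 228 FPKM in mutant nerve. The 5 red blood cell markers are therefore not 5 separate measurements. No lysosome gene was lower by as much as the median myelin marker. The part of any of these cells in the lysosome values was not tested.

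**Figure D4:**
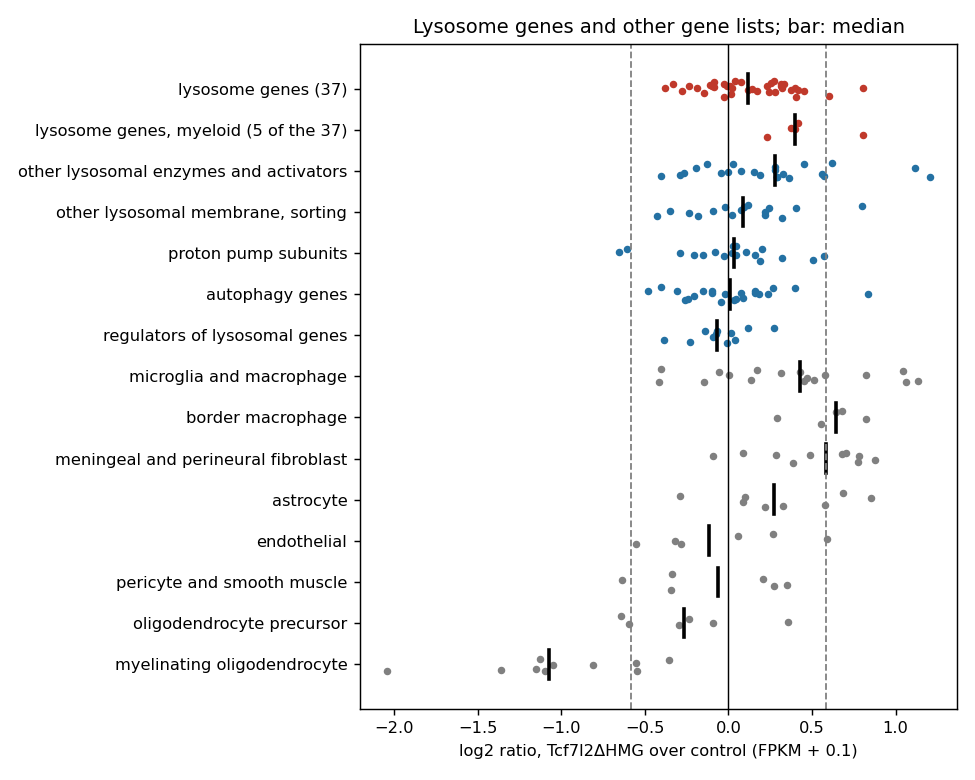
Log2 ratio of *Tcf7l2*ΔHMG to control for the 37 lysosome genes and the 5 myeloid ones among them (red), other lysosomal, proton pump, autophagy and regulator lists (blue) and cell type markers (grey); each point is a gene, the bar is the median of the list and dashed lines mark a fold change of 1.5. Red blood cell, neuron and osteoclast markers, with medians of 1.25, 0.79 and 1.34, are not drawn. The osteoclast median rests on the 2 of 5 markers that passed the filter, *Calcr* and *Acp5*, both below 1 FPKM in control nerve. The medians drawn run from −1.07 for myelinating oligodendrocyte to 0.64 for border macrophage markers, with the lysosome genes at 0.12.

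Further genes of the lysosome were examined in the same way. Of 23 other lysosomal enzymes and activators, 3 were higher by a fold change above 1.5 and none lower, with a median log2 ratio of 0.28. Those 3 are 13.04% of the list, a share near the 15.4% over all genes and the 11.7% in the members' range of mean FPKM. They were *Acp5*, the tartrate-resistant phosphatase, which had the highest ratio (1.21, from 0.83 and 2.06 FPKM), the hyaluronidase *Hyal1* (1.11) and the sulfatase *Arsg* (0.62), the latter chosen after their values were seen. *Galc*, the galactosylceramidase that degrades the main myelin galactolipid and is deficient in Krabbe disease, had the lowest ratio, at 11.7 FPKM in control nerve and 8.84 FPKM in mutant nerve (−0.40). Of 16 other membrane proteins and sorting receptors above the filter, 1 (6.25%) was higher by that cutoff and none lower, with a median of 0.09. *Laptm5*, which is expressed in blood-derived cells, was at 21.8 and 38.1 FPKM (0.80), and *Abca2*, a lipid transporter abundant in oligodendrocytes, at 78.4 and 58.2 FPKM (−0.43). The control interval of *Abca2* ran from 75.7 to 14129 FPKM, so its midpoint log2 ratio of −6.91 follows from that upper bound. The proton pump that acidifies lysosomes had a median of 0.04 over 18 subunits, with none higher by the cutoff and 2 lower. Those 2 are 11.1% of the list, a share near the 8.52% over all genes and the 7.92% in the members' range of mean FPKM. *Atp6v1h* was at 44.2 and 28.0 FPKM (log2 ratio −0.66) and *Atp6v0a2*, named after its value was seen, at 41.5 and 27.2 FPKM (−0.61). *Atp6v1f*, the highest ratio of the list, was at 90.2 and 134 FPKM (0.57). Its control value lay above its interval of 58.3 to 68.3, and the midpoints gave a log2 ratio of 1.08, past the cutoff. Among 11 regulators of lysosomal genes, none passed the cutoff. Their ratios ran from −0.38 for *Zkscan3*, a repressor of autophagy genes, to 0.27 for *Tfe3*, a relative of *Tfeb*.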

How the data were processed

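RNA from P12 optic nerves was sequenced by the authors as 1 library per genotype. TopHat was used by the authors for mapping, with default parameters, and Cufflinks for FPKM. The submitters' processing notes name the genome build mm9, and versions are not given in the sources used here. The deposited FPKM tables give an FPKM value, 2 interval bounds and a status per row. No column of the authors' own comparisons was present. Starts are counted from 1. Merged names were split, and rows of a symbol were summed. Genes with status OK in both libraries and at least 1 FPKM in at least 1 library were compared as log2 of mutant over control FPKM, each plus 0.1, which understates the change of low genes. The cutoff was a fold change of 1.5, as in the legends of the study. No test was made. The members, lists and motifs were chosen with earlier results of these data known. All 37 members are named. From each further lysosomal list the highest and lowest ratio are named, with exceptions beside the markers chosen after values were seen (*Fcer1g*, *Csf1r*, *Aif1*, *Siglech*). Depth was searched in fixed steps for the smallest fragment number that made the bounds of short unnamed rows whole multiples of 1 fragment, within 0.01. Of the numbers near it, the one that left the smallest deviation was kept. Whether reads were counted by strand is not given. The spans of *Ctsa*, *Ctsb*, *Ctsz* and *Sgsh* overlap another expressed gene in both libraries, and that of *Ppt1* in the control library only. The computation was tested on simulated data. Python 3.11.15, numpy 2.4.6, pandas 2.3.3 and matplotlib 3.10.9 were used.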

Additional observations from a re-analysis of the deposited data

How the results depend on the processing

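No paired analysis was possible because each genotype had 1 library. The count of 2 lysosome genes higher by the cutoff and 0 lower, and the class medians, were recomputed under 14 alternatives and, chosen after seeing the data, with interval midpoints. Centring, scaling to the 75th percentile and rescaling named rows each left 1 gene (*Cd68*) past the cutoff, and a fold change of 2 left 0. Rescaling all rows to a sum of 1000000, which moved the median of all genes to −0.63, gave 0 higher and 17 lower, and a median of −0.55 over the 37 genes, still 0.08 above the median of all genes. The class medians became −0.38 for cathepsins, −0.55 for glycosidases and sulfatases, −0.58 for other lumenal proteins, −0.72 for membrane proteins and −0.55 for regulators, and only *Cd68* (0.13) of the 37 genes stayed above 0, with *Ctsf* at −0.065. This shift follows from unnamed rows, whose share of all FPKM was 70.7% for the control and 80.7% for the mutant. Other pseudocounts, filters, row choices and status rules kept both counts. Interval midpoints also kept both counts, and changed the sign of 1 gene, *Ctsd* (0.14). With midpoints the proton pump list gained 1 gene past the cutoff, *Atp6v1f*. The other lysosomal enzymes and activators then had 4 genes higher by the cutoff in place of 3, with *Hgsnat* at 0.64. The other membrane proteins and sorting receptors then had 1 gene lower, *Abca2*, whose control interval ran from 75.7 to 14129 FPKM. Summing *Ankrd29* and *Npc1*, also chosen after seeing the data, gave −0.38 for *Npc1*. With 1 library per genotype, variation between animals is unknown.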

Other observations

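Autophagy genes, which deliver cytoplasm to lysosomes, had a median log2 ratio of 0.01 over 22 genes, with 1 higher by a fold change above 1.5 and none lower. That 1 gene is 4.55% of the list, compared with 15.4% over all genes. *Gabarap*, an autophagosome membrane protein, was at 211 FPKM in control nerve, above its interval of 169 to 182, and at 376 FPKM in mutant nerve, a log2 ratio of 0.84. Its relative *Gabarapl2* was at 83.2 and 63.0 FPKM (log2 ratio −0.40), and *Atg16l1*, which helps to attach such proteins to membranes, had the lowest ratio of the list, at 11.3 and 8.04 FPKM (−0.48). *Sqstm1*, the cargo receptor p62, was at 88.4 and 117 FPKM (log2 ratio 0.40). *Gabarapl2* and *Sqstm1* were chosen after their values were seen.

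Genes for the release of cholesterol in lysosomes and its export were each lower in the mutant library: *Lipa* (log2 ratio −0.33), *Npc2* (−0.24) and *Npc1* (−0.28), all with intervals that lay apart. This grouping was made after the values were seen, from 1 library per genotype, and none of the 3 passed a fold change of 1.5.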
